A study of Mus musculus with 24 samples.

Results

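The Kruppel-like factor (KLF) genes encode zinc-finger transcription factors, and 10 of them, Klf2, Klf3, Klf4, Klf5, Klf6, Klf9, Klf10, Klf11, Klf13 and Klf15, were followed here through the m6A peaks that mouse kidneys carried on their mRNAs. Their peaks were those that overlapped an exon of one of these genes on the gene's own strand. The 12 peak lists held 81 such peaks among 91013, and all 10 genes had at least 1 peak in at least 1 kidney, of 7774 protein-coding genes with a peak among 21951 annotated. Overlapping peaks of different kidneys on the same strand were joined into a locus, which gave 16 KLF loci of 16815 in all. No peak lay on the opposite strand of these genes.

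The kidneys came from male C57BL/6 mice aged 8 weeks, 4 per group. Control mice received vehicle by daily intraperitoneal injection for 14 days and then vehicle intravenously. Injury group (IG) mice received the same vehicle for 14 days and then cisplatin, a platinum drug that damages the kidney tubule, at 20 mg/kg intravenously. Treatment group (TG) mice were given berberine, a plant alkaloid, at a daily 20 mg/kg during those 14 days, then the same cisplatin dose, and every kidney was taken 72 h after the intravenous injection. No group received berberine without cisplatin. IvC denotes IG against control, TvI denotes TG against IG, and TvC denotes TG against control.

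MeRIP-seq pulls down fragmented RNA with an antibody against N6-methyladenosine (m6A), so that methylated stretches appear as peaks over the input RNA. Each deposited peak has a score, which is 10 times the negative log10 of its p-value, and the lowest score in any list was 13.02, next to the 13.0 that a p of 0.05 gives. A higher score is stronger evidence for a peak and not a higher share of methylated molecules. It also rises with the amount of the RNA and the depth of the library, neither of which the lists give. A locus without a listed peak may therefore lie below the threshold. In whole kidneys, fewer cells of a type and less RNA per cell cannot be told apart.

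KLF proteins bind GC-rich and CACCC-box DNA through C2H2 zinc fingers at their C-terminal end, and the rest of each protein recruits activators or repressors. Klf2 and Klf4 are known for keeping endothelium quiescent, Klf5 for proliferation of epithelium, and Klf15 for podocyte differentiation and amino acid metabolism. Klf6 and Klf10 are injury-responsive and linked to TGF-beta signalling, Klf9 responds to glucocorticoid and thyroid hormone, and Klf3, Klf11 and Klf13 act largely as repressors through CtBP or Sin3A. m6A on mRNA is recognised by reader proteins that affect the stability and translation of the transcript, and it is typically found in long internal exons and near stop codons, within GGAC or GGACT contexts.

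The sequences that follow show the motif copy nearest the middle of the loci on which the results turn, in GRCm38 (RefSeq) sequence on the gene's strand, with the motif in capitals. The first 3 hold GGACT. The last pair, at the loci of Klf5 and Klf15 with the most regularly listed peaks, hold GGAC but no GGACT. All lie in CDS except that of Klf4 exon 5, which lies in the 3′ UTR.
Klf4 exon 3, chr4:55530141-55530169, minus strand: agctccccaccaGGACTacccctacactg
Klf4 exon 5, chr4:55527790-55527818, minus strand: ttgaacatgcccGGACTtacaaaatgcca
Klf11 exon 3, chr12:24655441-24655469, plus strand: agttgcctgcagGGACTatcaagcccatc
Klf5 exon 2, chr14:99301866-99301894, plus strand: gacggcagtaatGGACacccttaatgttt
Klf15 exon 3, chr6:90466924-90466952, plus strand: gaacggtagcagGGACctggagacctgta

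GGACT, counted on both strands, stood on the gene's strand in 11 of the 16 KLF loci and on the opposite strand in 8. There were 20 copies on either strand, which is 1.05 per kb on each. All loci together held 1.15 per kb on the gene's strand and 1.02 on the opposite strand, and 39.1% and 36.2% of all loci held a copy. GGAC, which includes every GGACT, occurred 4.53 times per kb on the gene's strand of the KLF loci against 4.32 in all loci. On the opposite strand it occurred 4.21 times per kb in the KLF loci against 3.38 in all loci. Klf4 exon 3 held 2 copies of GGACT and 6 of GGAC, and of 2008 loci of like length (0.8 to 1.25 times as long) 70.9% held GGACT. Klf5 exon 2 held a single GGAC, where 96.6% of 2063 loci of like length held at least 1 and their median was 4. Klf15 exon 3 held 5 GGAC and no GGACT on either strand, whereas 73.8% of 1913 loci of like length held GGACT on the gene's strand. Neither motif was found on the gene's strand of Klf3 exon 5 or Klf5 exon 4, where 47.9% and 66.7% of loci of like length held GGAC.

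Each gene encodes 3 zinc fingers, and a locus lay over the codons of the second finger in 8 genes, of the third in 7 and of the first in 6. There were 8 loci on internal exons with 43 peaks, 7 on last exons with 35 peaks and 1 on a first exon with 3 peaks. All 7 last-exon loci held the stop codon. The loci were long, with a median of 893.5 bp against 290 bp for all loci, and 73.9% of all loci were shorter than that. How many peaks spanned a whole exon depended on the annotation and on the match required. Exactly to the base, 31 KLF peaks (38.3%) and 64.5% of all peaks spanned a GENCODE exon, and 44.4% and 62.8% a RefSeq exon. To within 10 bp at each end, 61.7% of KLF peaks and 67.9% of all peaks spanned a GENCODE exon. For RefSeq exons at that tolerance it was 59 KLF peaks (72.8%) and 66.0% of all peaks. Where a peak spans a whole exon, its position gives no finer location of the methylated base.

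**Figure D1:**
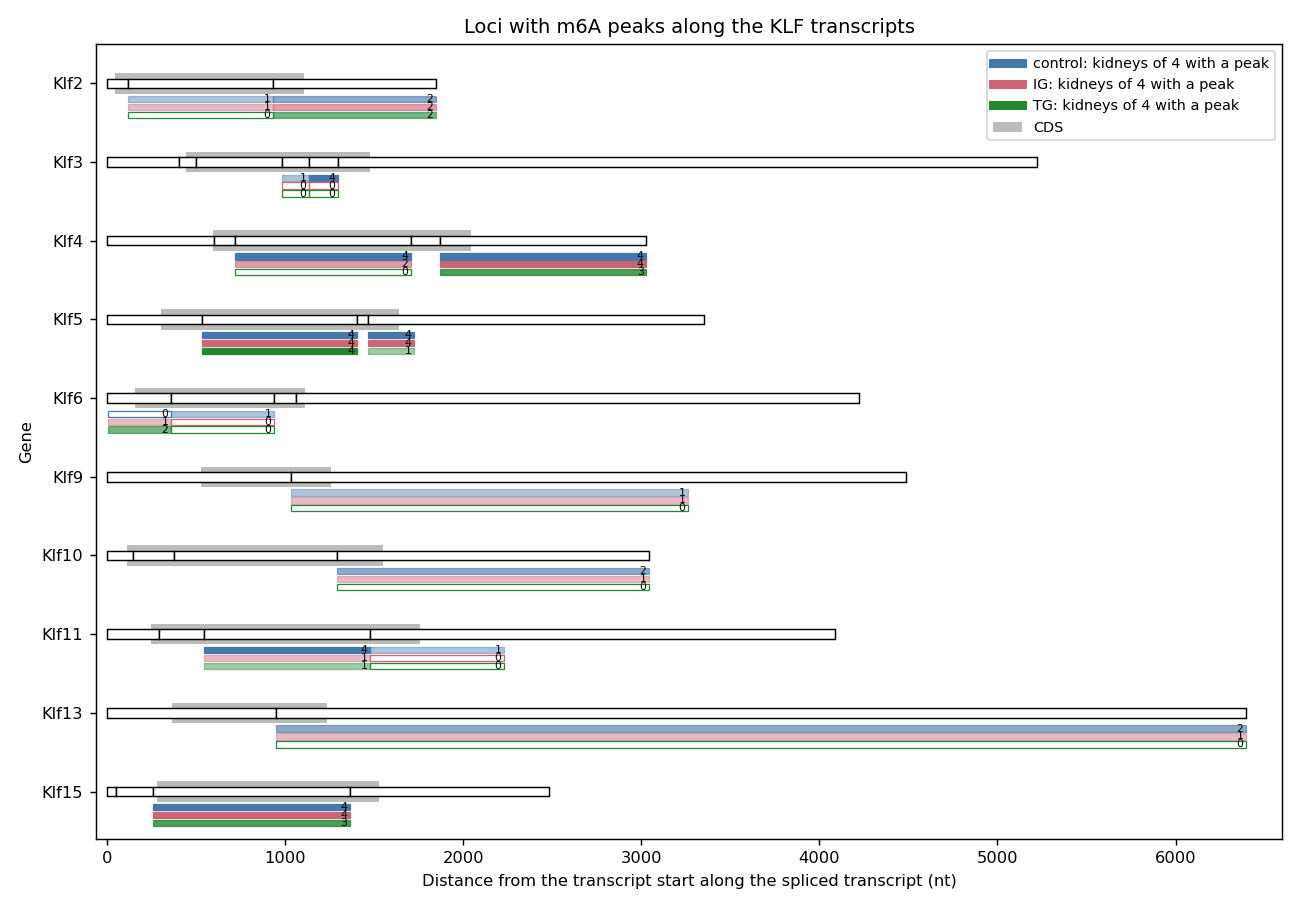
Loci with m6A peaks drawn along the spliced transcript of each KLF gene, in nt from the transcript start (x axis), with exons as white boxes, CDS in grey, and 1 bar per group under each locus that holds the number of its 4 kidneys with a peak and is darker the more there are. Klf4 has a bar for exon 3 that empties from 4 control kidneys to 0 TG kidneys beside a bar for exon 5 that keeps 3 TG kidneys, and Klf5 exon 2 has a peak in 4 kidneys of every group.

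Fewer peaks were listed on the KLF genes in IG than in control kidneys, and fewer again in TG kidneys. The control lists held 8, 9, 10 and 12 KLF peaks, the IG lists 6, 8, 7 and 5, and the TG lists 5, 3, 3 and 5. The means were 9.75 ± 1.71 (SD, n = 4), 6.5 ± 1.29 (SD, n = 4) and 4 ± 1.15 (SD, n = 4). The control and IG ranges touched at 8, IG and TG overlapped at 5, and control and TG ranges did not overlap. The whole lists also shortened in that order, from 8531 to 9579 peaks in controls to 6745 to 8357 in IG and 5901 to 6753 in TG. Of the listed peaks, KLF peaks made up 0.109% in the control group, 0.0876% in IG and 0.0627% in TG. Once each list was cut to its 5901 highest-scoring peaks, the mean difference in KLF peaks per kidney was -1.25 in IvC in place of -3.25, -3.5 in TvC in place of -5.75, and -2.25 in TvI in place of -2.5. The part of list length in the KLF counts beyond this was not tested.

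**Figure D2:**
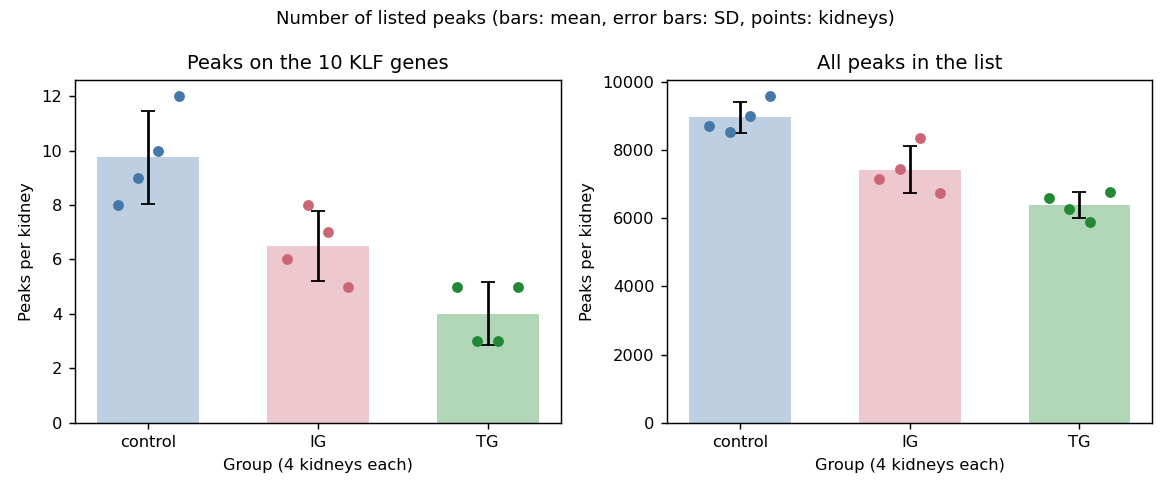
Number of peaks per kidney (y axis) on the 10 KLF genes (left) and in the whole list (right) by group, with points for kidneys, bars for means and error bars for SD (n = 4). KLF peaks fall from a mean of 9.75 in controls to 6.5 in IG and 4 in TG, and the whole lists shorten in the same order.

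A control kidney listed peaks on 7.25 ± 1.89 of the 10 genes, an IG kidney on 5 ± 0.816 and a TG kidney on 3.75 ± 0.957 (SD, n = 4 each). Only Klf5 had a peak in all 12 kidneys, and Klf4 and Klf15 had one in 11. Klf2 followed with 8 kidneys, Klf11 with 6, Klf3 and Klf6 with 4, Klf10 and Klf13 with 3 and Klf9 with 2. Of the 16 loci, 7 had a peak in all 4 control kidneys, 4 in all 4 IG kidneys and 1 in all 4 TG kidneys, while 1, 4 and 9 loci had none in the respective group. The like counts over all loci are not given here, and the whole lists shortened in the same order. These counts therefore do not set the KLF loci apart from other loci.

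In IvC, 8 of the 16 KLF loci had a peak in fewer IG than control kidneys, 1 in more and 7 in as many. Of all 16072 loci tested, 46.3% had fewer and 26.3% more. The only locus past the test was Klf3 exon 5, with a peak in 4 of 4 control and 0 of 4 IG kidneys (two-sided Fisher's exact test, p = 0.0286, adjusted p = 0.701 over all loci). That outcome, the only one that reaches an unadjusted p under 0.05 with 4 kidneys against 4, was met by 2.73% of all loci for a loss, and the opposite gain by 1.35%, with 0 KLF loci. No locus of the 16072 passed after adjustment, and 655 passed without it. The KLF median was -0.5 kidneys and that of all loci 0.

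In TvI, 8 of the 12 KLF loci with a peak in either group had fewer TG than IG kidneys, 1 had more and 3 as many. Of 13367 loci, 43.4% had fewer and 22.6% more. No KLF locus went from 4 to 0 kidneys or from 0 to 4, outcomes met by 0.449% and 0.217% of all loci (89 loci in all by an unadjusted Fisher's exact p, 0 after adjustment). The KLF median was -1 kidney and that of all loci 0.

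In TvC, 13 of the 16 KLF loci had fewer TG than control kidneys, 1 had more and 2 as many, against 54.9% and 18.8% of 15169 loci. Klf3 exon 5 and Klf4 exon 3 each had a peak in 4 control and 0 TG kidneys (two-sided Fisher's exact test, p = 0.0286, adjusted p = 0.604). A loss of this size was met by 3.73% of all loci and a gain by 1%, with 0 KLF loci gained and, over all loci, 718 unadjusted and 0 adjusted calls. The KLF median and the median of all loci were both -1 kidney. IvC and TvC share the control kidneys, IvC and TvI the IG kidneys, and TvI and TvC the TG kidneys, so the 3 comparisons are not separate evidence.

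**Figure D3:**
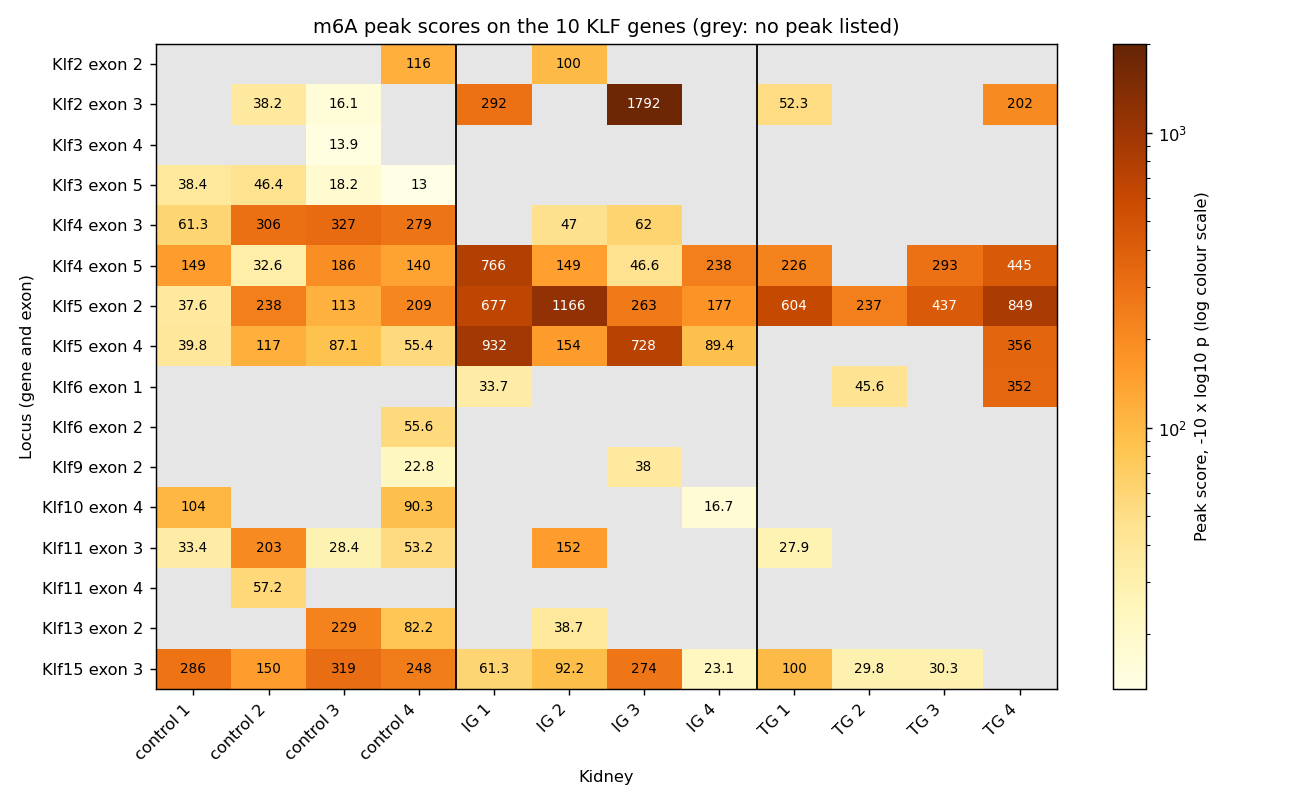
Peak score (10 times the negative log10 p, log colour scale) at each of the 16 KLF loci (rows) in each of the 12 kidneys (columns, grouped as control, IG and TG), with grey where no peak was listed. Klf5 exon 2 is filled in all 12 columns, Klf3 exon 5 only in the 4 controls, and 9 of the 16 rows are grey in all TG kidneys.

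Klf5 carried the most regularly listed peaks. Klf5 exon 2 (chr14:99301381-99302254, plus strand, 874 bp of CDS) was the only KLF locus with a peak in all 12 kidneys, as had 14.4% of all loci, and all 12 peaks spanned the exon exactly. Its scores were 37.6, 238, 113 and 209 in controls, 677, 1166, 263 and 177 in IG, and 604, 237, 437 and 849 in TG. The lowest TG score lay just under the highest control score, and IG overlapped controls in 1 kidney. Scores were compared as log2 scores at the loci listed in all 8 kidneys of a comparison. Each list was centred on its median over those loci, so that a difference is relative to them. On that scale TG was above controls by 2.47 (SE 0.60, 95% interval 1.13 to 3.82, limma, adjusted p = 0.0238). This was the single KLF locus that could be tested in TvC, where 9.12% of 2819 loci scored higher and 5.96% lower. The call did not hold without centring (difference 1.99, adjusted p = 0.0702) or as a percentile within the list (25.6 points higher, adjusted p = 0.142), and it did not hold without control replicate 3 (adjusted p = 0.0547) or without TG replicate 4 (adjusted p = 0.0513).

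In IG, Klf5 exon 2 scored 2.09 above controls (SE 0.70, 95% interval 0.52 to 3.67), which missed the threshold after adjustment (limma, adjusted p = 0.0727). Between TG and IG the difference was 0.39 with an interval from -1.01 to 1.80 (limma, adjusted p = 0.835). In TvI no locus of 2776 was called, so the shares of loci called higher and lower were 0 and 0 by limma, with 313 loci at an unadjusted p under 0.05.

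Klf5 exon 4 (chr14:99313151-99313409, plus strand) behaved otherwise. This locus of 259 bp covers the start of the last exon, with the stop codon and the codons of the last pair of zinc fingers. All 9 peaks had the same bounds, which end 3 bp before the end of the last exon in RefSeq (262 bp) and well inside the longer one of GENCODE (1886 bp), so the end of the peak cannot be told apart from an annotated exon end. Its scores were 39.8, 117, 87.1 and 55.4 in controls and 932, 154, 728 and 89.4 in IG. A single TG kidney, replicate 4, had a peak, with a score of 356. All 4 IG kidneys and all 4 controls thus had the peak while 3 of 4 TG kidneys lacked it (two-sided Fisher's exact test, p = 0.143 in TvI and in TvC). In IvC the score was 2.41 higher in IG (SE 0.74, 95% interval 0.76 to 4.05, limma, adjusted p = 0.0540), and with each kidney left out in turn the difference ranged from 1.93 without IG replicate 1 (limma, adjusted p = 0.111) to 3.02 without IG replicate 4 (limma, adjusted p = 0.0305). Of these 8 fits 1 called the locus, and the highest adjusted p was 0.131, without control replicate 1.

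Within Klf5, exon 4 outscored exon 2 in 1 of 4 control kidneys, 2 of 4 IG kidneys and 0 of 4 TG kidneys. In all 4 TG kidneys the peak on exon 2 was the stronger or the only peak of the transcript.

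In Klf4 it was the internal exon whose peak was absent from TG. Klf4 exon 3 (chr4:55529999-55530983, minus strand, 985 bp of CDS) had scores of 61.3, 306, 327 and 279 in controls. In IG, replicates 2 and 3 had a peak, with scores of 46.99 and 62.1, and no TG kidney had one. The strongest IG score was next to the weakest control score and below the other 3. The count fell from 4 control to 2 IG kidneys (two-sided Fisher's exact test, p = 0.429) and to 0 TG kidneys (p = 0.0286 in TvC, above). With peaks under the median score of all lists (71.3) left out, the TvC difference was 3 kidneys in place of 4 (two-sided Fisher's exact test, p = 0.143).

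Klf4 exon 5 (chr4:55527137-55528300, minus strand) holds the stop codon, the codons of the last pair of zinc fingers and the 3′ UTR. Its scores were 149, 32.6, 185.5 and 140 in controls, 766, 149, 46.6 and 238 in IG, and 226, 293 and 445 in TG replicates 1, 3 and 4. The 3 listed TG scores lay above every control score, while TG replicate 2 had no peak and IG overlapped controls in 2 kidneys. The IvC score difference was 1.06 with an interval from -0.83 to 2.95 (limma, adjusted p = 0.431). With each kidney left out in turn it ranged from 0.43 without IG replicate 1 to 1.80 without IG replicate 3, and it was 0.53 without control replicate 2, none of them called. In TvC the score was 2.11 higher with missing values left out (limma, adjusted p = 0.0514) and 2.05 higher without TG replicate 2, which lacked the peak (limma, adjusted p = 0.0555). Exon 3 outscored exon 5 in 3 of 4 control kidneys, in 1 of 4 IG kidneys and in 0 of 4 TG kidneys, of which 3 had the exon 5 peak alone.

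Klf15 exon 3 (chr6:90466412-90467523, plus strand, 1112 bp) holds the start codon and the codons of the first zinc finger. Its scores were 286, 150, 319 and 248 in controls, 61.3, 92.2, 274 and 23.1 in IG, and 100.05, 29.8 and 30.3 in TG replicates 1, 2 and 3. All listed TG scores and 3 of 4 IG scores lay below every control score, and IG replicate 3 lay within the control range. The centred log2 score differed by -1.41 in IG (SE 0.63, 95% interval -2.81 to -0.00187), which did not pass after adjustment (limma, adjusted p = 0.162). With each kidney left out in turn the difference ranged from -1.95 without IG replicate 3 (limma, adjusted p = 0.0453) to -0.81 without IG replicate 4 (limma, adjusted p = 0.367), and 1 of the 8 fits called it. In TvC the locus could be tested only without TG replicate 4, which lacked the peak, and was then -1.87 (limma, adjusted p = 0.0423), or with missing values left out, at -1.82 (limma, adjusted p = 0.0541). In IvC, 0 of the 4 KLF loci that could be tested were called, where 8.23% of 3036 loci scored higher and 5.9% lower. Unadjusted, 3 of the 4 had a p under 0.05 by limma, as had 934 of the 3036 loci. Klf15 was the one with the lower mean in IG, and Klf4 exon 5 and both Klf5 loci had higher means. Without centring, the median log2 score difference over the loci that could be tested was -0.14 in IvC, -0.20 in TvI and -0.38 in TvC.

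**Figure D4:**
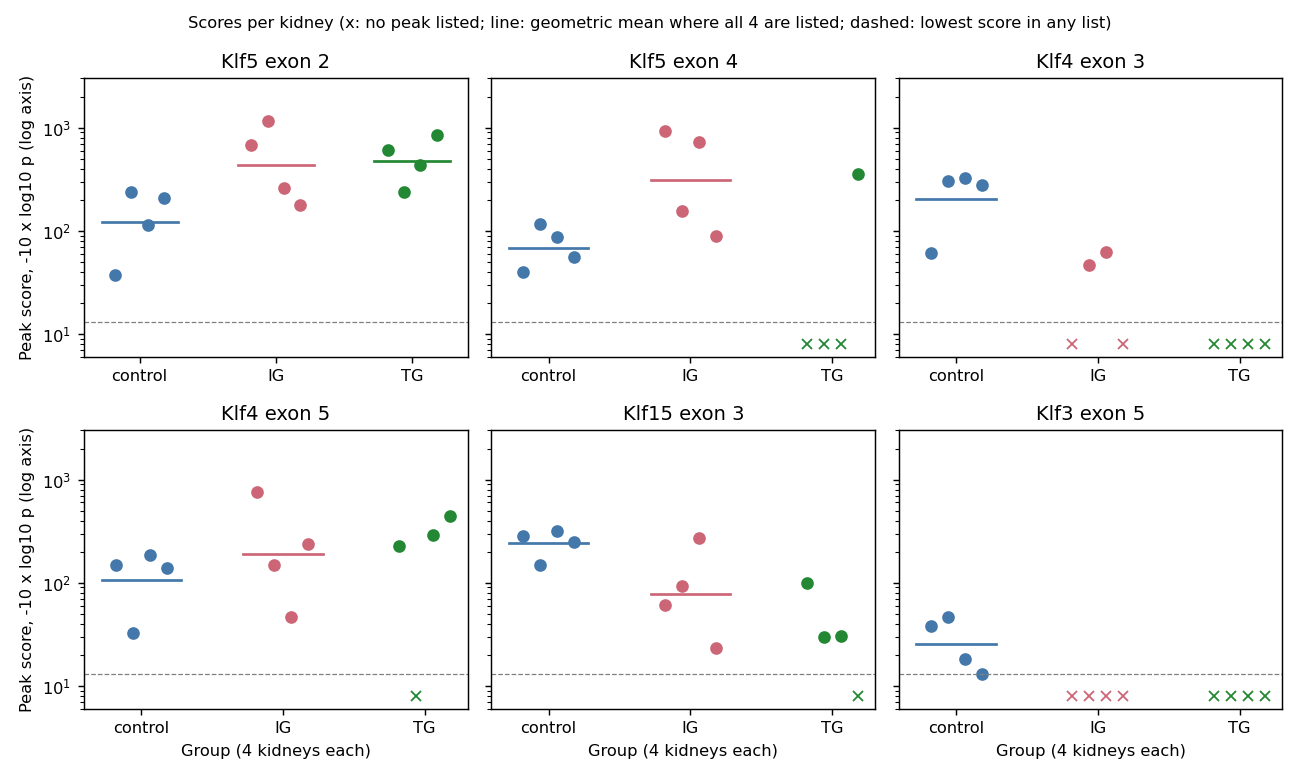
Peak scores per kidney (y axis, 10 times the negative log10 p, log axis) by group (x axis) at 6 KLF loci, with a line at the geometric mean where all 4 kidneys were listed, crosses for kidneys without a peak and a dashed line at the lowest score of any list, 13.02. Klf5 exon 2 lies between 237 and 849 in TG against 37.6 to 238 in controls, whereas Klf15 exon 3 lies at or below 100.05 in TG and at or above 150 in controls.

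Among the repressors, Klf3 exon 5 (chr5:64827110-64827270, plus strand) was a whole internal exon of 161 bp with the codons of the first zinc finger. Its scores in the control kidneys were 38.4, 46.4, 18.25 and 13.04, and neither IG nor TG had a peak. All 4 scores were under the median of all lists, and that of replicate 4 was at the threshold. With lists of equal length the difference was 50 percentage points of kidneys (two-sided Fisher's exact test, p = 0.429 in IvC and in TvC), and no peak was left at or above the median score. Klf3 exon 4 (chr5:64822879-64823539) had 1 peak, in control replicate 3, with a score of 13.89, and this peak of 661 bp ran past the end of the exon of 151 bp.

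Klf11 exon 3 (chr12:24654843-24655776, plus strand, 934 bp of CDS) had scores of 33.4, 203, 28.4 and 53.2 in controls. IG replicate 2 had a score of 152 and TG replicate 1 a score of 27.9, and the other 6 cisplatin-treated kidneys had no peak. The drop from 4 kidneys to 1 did not pass (two-sided Fisher's exact test, p = 0.143 in IvC and in TvC). With lists of equal length the difference shrank from -75 to -25 percentage points of kidneys in IvC and in TvC (two-sided Fisher's exact test, p = 1), and with peaks under the median score left out it was 0 in IvC and -25 in TvC. Klf11 exon 4 (chr12:24660183-24660933) had a single peak, in control replicate 2, with a score of 57.2. Klf13 exon 2 (chr7:63886347-63891797, minus strand), 5451 bp with the stop codon and a long 3′ UTR, had scores of 229 and 82.2 in control replicates 3 and 4, 38.7 in IG replicate 2 and no peak in TG.

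Klf2 exon 3 (chr8:72320744-72321656, plus strand), with the stop codon and 3′ UTR, was listed evenly, in 2 kidneys of each group. Its scores were 38.2 and 16.1 in control replicates 2 and 3, 292 and 1792 in IG replicates 1 and 3, and 52.3 and 202 in TG replicates 1 and 4. The score of 1792 was the highest of any KLF peak, and the 4 scores after cisplatin lay above both control scores. With 6 kidneys lacking a peak, no score test was possible under the rule that all 8 kidneys be listed. Klf2 exon 2 (chr8:72319426-72320242) had a peak in control replicate 4 (116) and in IG replicate 2 (99.96).

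Klf6 exon 1 (chr13:5861489-5861842, plus strand), which holds the start codon, was the single KLF locus with more kidneys after cisplatin than in controls. No control kidney had a peak there, IG replicate 1 had a score of 33.7, and TG replicates 2 and 4 had scores of 45.6 and 352. With 0 control and 2 TG kidneys the difference did not pass (two-sided Fisher's exact test, p = 0.429). Klf6 exon 2 (chr13:5864768-5865344) had a peak in control replicate 4, with a score of 55.6.

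Klf10 and Klf9 were listed in 3 and 2 of the 12 kidneys. Klf10 exon 4 (chr15:38294406-38296164, minus strand) had scores of 104 and 90.3 in control replicates 1 and 4 and 16.7 in IG replicate 4. Klf9 exon 2 (chr19:23164683-23166911, plus strand) had 22.8 in control replicate 4 and 38.01 in IG replicate 3. Neither had a peak in TG. The widest of these differences, 2 control against 0 TG kidneys at Klf10, did not pass (two-sided Fisher's exact test, p = 0.429).

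The pair of KLF loci with the largest IvC difference in listed kidneys was matched with the loci of other genes whose scores, ranked within each list and set to 0 where not listed, ran most alike over the 12 kidneys. Klf3 exon 5 was most like loci of Efnb2 (Pearson's r = 0.999), Clta (0.995) and Cep89 (0.992). Klf11 exon 3 was most like loci of Tsc1 (0.976), Phf7 (0.960) and 4833420G17Rik (0.940). With most kidneys at 0 in each pair, these values describe little more than a shared set of listed kidneys.

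The other KLF and SP genes, which share the same type of DNA-binding domain, were listed on 8 of 16 genes. In IvC 12 of their 17 loci had fewer kidneys and 3 more, and 3 went from 4 to 0 kidneys, namely loci of Klf12, a repressor, Klf1, the erythroid family member, and Sp2 (named to complete the count). In TvC 13 of 16 loci had fewer kidneys and 2 more, and 4 went from 4 to 0, those of Sp1, Klf12, Klf1 and Sp2. In TvI 6 of 10 had fewer and 2 more, with 0 lost. Each of these losses had an unadjusted p of 0.0286 (two-sided Fisher's exact test) and did not pass after adjustment. The background shares of loss are those given above, 2.73% in IvC, 0.449% in TvI and 3.73% in TvC. They apply to the lists below too, as do the shares of all loci with fewer and with more kidneys. Those were 46.3% and 26.3% in IvC, 43.4% and 22.6% in TvI, and 54.9% and 18.8% in TvC.

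Cofactors and ubiquitin ligases of KLF proteins had peaks on 10 of 14 genes, with 9 loci fewer and 9 more of 31 in IvC, 13 fewer and 6 more of 33 in TvI, and 11 fewer and 8 more of 30 in TvC. Among the 5 of these genes with a peak in all 12 kidneys were Sin3a, the corepressor of Klf9, Klf11 and Klf13, and Fbxw7, the ligase that targets Klf5. A locus of Fbxw7 (chr3:84815268-84815769) went from 4 control and 2 IG kidneys to 0 TG kidneys. One of Ctbp2, a corepressor of Klf3 and its relatives, had 0 control, 1 IG and 3 TG kidneys, and one of Ep300, a coactivator, had 4, 4 and 1.

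Genes upstream of KLF transcription had peaks on 15 of 16 genes. In IvC 16 of 25 loci had fewer kidneys and 6 more, in TvI 7 of 16 and 4, and in TvC 15 of 23 and 4. A locus of Tgfb1, the ligand that induces Klf10 (chr7:25687002-25688223), had a peak in 4 control kidneys and in 0 IG and 0 TG kidneys. A locus of Thra, the thyroid hormone receptor (chr11:98741811-98742006), had 4, 2 and 0 kidneys, and one of Tgfbr1, a receptor of Tgfb1, had 4, 2 and 1. A loss from 4 kidneys to 0 was met by 2.73% of all loci in IvC and by 3.73% in TvC.

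Of 12 genes known as KLF targets 5 had a peak. In IvC 4 of 5 loci had fewer kidneys and 1 more, in TvI 1 of 3 and 2, and in TvC 4 of 6 and 2. Slc2a4, the GLUT4 glucose transporter (chr11:69947944-69948188), had a peak in 4 control, 0 IG and 3 TG kidneys, and Nphs1, the slit diaphragm protein nephrin, in 1, 4 and 2. A locus of Synpo, an actin-binding protein of podocytes, had 3, 0 and 0. No locus of these lists passed Fisher's exact test after adjustment over all loci.

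The lists cannot check the tissue label, since a missing m6A peak says nothing of a gene's expression, and marker genes are given here by their peaks alone. Of 12 kidney markers 6 had a peak, and Slc12a1, the transporter of the thick ascending limb, had a locus with a peak in 1 control, 4 IG and 0 TG kidneys. Lrp2, Slc34a1, Umod, Slc12a3, Aqp2 and Cdh16 were listed in no kidney. In IvC 2 of 7 kidney marker loci had fewer kidneys and 4 more, in TvI 6 of 9 and 3, and in TvC 4 of 8 and 4. Of 13 immune, endothelial and stromal markers 6 had a peak, and Pecam1, Cdh5 and Pdgfrb had one in all 12 kidneys. Of these markers' loci 4 of 9 had fewer kidneys and 1 more in IvC, 2 of 8 and 3 in TvI, and 4 of 10 and 2 in TvC, and none differed by 3 or more kidneys. The macrophage markers Adgre1, Cd68, Csf1r and Lyz2 had no peak in any kidney. The part of cell composition in the KLF results was not tested.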

How the data were processed

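The authors trimmed reads with cutadapt 1.9.3, aligned them with HISAT2 2.0.4 to mm10 (GRCm38) and called peaks with MACS in each kidney, keeping peaks on exons of mRNA. The version and threshold of MACS are not given in the sources used here. The deposited score of a peak is 10 times the negative log10 of its p-value. The lists hold no counts, so depth is unknown and precision rests on 4 kidneys per group. Replicates are the 4 labelled mice of a group, and no pair of lists was a duplicate.

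Peaks on the same strand that shared 1 bp or more formed a locus and were assigned to GENCODE M21 exons. Presence was tested with two-sided Fisher's exact tests at every locus, called at an unadjusted p under 0.05. Log2 scores were tested with limma 3.58.1 (R 4.3.3) at loci listed in all 8 kidneys, called at an adjusted p under 0.05. Before the test, each list was centred on its median over those loci. Adjustment was Benjamini-Hochberg over all loci. Both steps were also run on simulated data with planted changes. For listing, the planted changes followed the call rule itself, and kidneys were drawn without the groups' differing list lengths. Those runs are therefore not evidence for the calls here. RefSeq exons and a tolerance of 10 bp for exon ends were chosen after seeing the data. C2H2 patterns were found in the translated CDS.

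The KLF genes and the lists were chosen with earlier results of these data known. All loci of the 10 genes are described, with full values for those in at least 3 kidneys. From each other list at most 3 genes are named, those with a locus differing by at least 3 of 4 kidneys, ordered by the difference and then by mean score. Of markers and of genes listed in all 12 or in no kidney, some are named by presence alone, after their values were seen. The 3 most like loci are given for the 2 KLF loci with the largest IvC difference. The 12 input libraries, RNA-seq and the authors' differential sites were not used here. Python 3.11.15, numpy 2.4.6, scipy 1.17.1 and matplotlib 3.10.9 were used.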

Additional observations from a re-analysis of the deposited data

Results flagged for a closer look

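Within the control group, the score at Klf11 exon 3 in replicate 2 stood far from the others. It was 202.8, while the other 3 controls lay between 28.4 and 53.2, and the gap to the nearest of them was 0.858 of the group's whole range, above Dixon's 95% critical value for 4 samples. Of 15 groups of 4 values tested, this was the single one past that value. The 15 were 12 groups of listed scores at KLF loci and the 3 groups' KLF peaks per kidney. Chance passes about 1 in 20 groups where values are normally distributed. Scores were tested here as listed, not on the log2 scale of the score comparisons.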

How the results depend on the processing

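Counts of KLF loci called lost or gained changed with the setting. With lists of equal length, 0 loci were called in IvC in place of 1, and 1 in TvC in place of 2, which was Klf4 exon 3. With peaks under the overall median score left out, the counts were 0 and 0. Counting per gene gave 1 in TvC (Klf3). KLF peaks per kidney differed by -3.25 in IvC, by -1.25 with equal lengths and by -1 at or above the median score, and by -5.75, -3.5 and -2.5 in TvC, while in TvI the difference was -2.5, -2.25 and -1.5. The number of called loci ranged from 1 to 2 in IvC from 0 to 1 in TvI and from 2 to 3 in TvC when each kidney was left out in turn (the added call is Klf11 exon 3 without IG replicate 2 or TG replicate 1 and Klf5 exon 4 without TG replicate 4, in each case the only kidney of its group with the peak, so that leaving it out fixes the outcome, while leaving out any other kidney kept p at 0.143 there, in IvC and TvC for Klf11 and in TvI and TvC for Klf5), and the number called by score from 0 to 1 in IvC and in TvC. The TvC score call at Klf5 exon 2 gave 0 called loci without centring, as percentiles and without control replicate 3. Without TG replicate 4 that locus was not called either (limma, adjusted p = 0.0513), and the 1 called locus was Klf15 exon 3 (difference -1.87, limma, adjusted p = 0.0423), which that kidney lacks. In TvI the difference at Klf5 exon 2, 0.39, ranged from -0.0058 without IG replicate 4 (limma, adjusted p = 0.997) to 0.84 without IG replicate 2. The replicate numbers did not pair the kidneys: deviations of same-numbered kidneys correlated between -0.0339 and 0.0915, and no pair exceeded 0.1. With the replicate number as a block, 0 loci were called in IvC and 0 in TvC by listing, where the exact sign-flip test over 4 numbers cannot go below p = 0.125, and 0 by score in TvC (Klf5 exon 2, difference 2.47, limma, adjusted p = 0.0588). The causes of these changes were not tested, except that the block's smallest p lies above the threshold by construction. Depth was unknown, so no interval from counting error was given.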
